A study of Mus musculus with 50 samples.

Results

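The nuclear genes for subunits of respiratory complex I were followed across 50 RNA sequencing libraries of mouse thyroid. The members were the genes of the count table whose mouse symbol was Nduf followed by a, b, c, s or v and a number, plus Ndufab1. Assembly factors and Ndufa4l2 were left out, as was any gene with fewer than 10 counts in every library. The rule matched 37 of the 52636 genes listed, all 37 were kept, and all 37 were tested in every comparison. Their counts ranged from 15 to 26322 per library.

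The mice were male C57BL/6 animals of 10 to 14 weeks, and every animal was given antibody once by the intraperitoneal route. RW, an isotype antibody against ragweed, was the control at 40 mg/kg. The ligand block aJ1aJ2 combined antibodies to Jag1 and Jag2 at 20 mg/kg each. The receptor block aN1aN2 combined antibodies to Notch1 at 5 mg/kg and Notch2 at 10 mg/kg, and aN1aN2aN3 added an antibody to Notch3 at 20 mg/kg. RW, aJ1aJ2 and aN1aN2 thyroids were collected at 15 hours and at 5 days. At 7 days there was a first set of RW and aJ1aJ2 and a second set of aJ1aJ2 and aN1aN2aN3, which makes 10 groups of 5 libraries. RW was not part of the second set as analysed here. The series design also mentions thyroid hormone injections, and no label says which mice had them, so hormone was not used as a factor. The titles carry separate series of sample IDs for the first 7-day set, for RW and aJ1aJ2 at 15 hours, for aN1aN2 at 15 hours with all 5-day groups, and for the second 7-day set. ID series and treatment therefore cannot be told apart for aN1aN2 at 15 hours.

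Complex I, the NADH:ubiquinone oxidoreductase of the inner mitochondrial membrane, passes electrons from NADH to ubiquinone and pumps protons. Its peripheral arm in the matrix holds the flavin and the iron-sulfur clusters, and its membrane arm holds the proton pumps, whose core subunits are encoded by mitochondrial DNA. The nuclear genes supply the core subunits of the matrix arm and all accessory subunits of both arms. Tissues rich in mitochondria, such as skeletal muscle and brown fat, hold high levels of these transcripts, and both tissues lie close to the thyroid.

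By role, 7 members encode core subunits of the matrix arm and 9 accessory subunits of that arm. A further 9 encode accessory subunits of the proximal membrane arm and 10 accessory subunits of the distal membrane arm. Ndufab1 is the mitochondrial acyl carrier protein, which is also an accessory subunit. Ndufa4 keeps its historical name but is now counted as a subunit of complex IV. The mouse locus for Ndufb1 is named Ndufb1-ps in the annotation and is not a member. For 23 members a stretch of at least 50 bases was identical to another annotated gene, and 16 overlapped an exon of another gene, so the counting could have split or shared their reads. Among those named below, examples are Ndufs5 (copy BC002163), Ndufb4 (Gm16056, Gm20519 and Ndufb4c), Ndufa11 (Ndufa11b), Ndufs6 (Ndufs6b) and Ndufb3 (Gm45930). Others are Ndufb2 (overlap with Braf), Ndufb8 (overlap with Gm20538), Ndufa7 (Gm15694 and Gm9711), Ndufb6 (Smim27), Ndufa13 (Tssk6), Ndufb11 (Rbm10) and Ndufb5 (Mrpl47). Stretches of Ndufab1 were shared with 117 genes, among them Ndufab1-ps, of Ndufc1 with 106 and of Ndufa9 with 136. Ndufs1 shared stretches with 70 genes and Ndufs7 with 31. Ndufs3 and Ndufb9 were also among the 23, and Ndufa3 overlapped Tfpt.

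The 5′ ends of these genes were searched for short words bound by transcription factors, and no link of these words to transcript levels was tested. RefSeq promoter windows (build GRCm38.p6) matched 33 members with 35 windows. Ndufa2, Ndufb9 and Ndufs1 were among those with none. In the 250 bases before the start, the NRF1 word (GCGC, then any base, then TGCGC) was found on either strand in 7 of 35 member windows (20.0%), which belong to 6 genes, against 3.74% of all 32851 windows. The ETS word CCGGAAG, the core bound by GABPA, was found in 3 of 35 (8.57%) against 6.91% of all windows. The YY1 word AAGATGGC was in 0 of 35 against 1.56% of all windows, and the ERRA word TCAAGGTCA in 0 of 35 against 0.387%. No member window held both the NRF1 and the ETS word, and a match is only a match of letters. The member windows and all windows were not matched for base composition. The NRF1 word lay upstream of Ndufa5, Ndufa8, Ndufa11, Ndufb4, Ndufs5 and Ndufs6, and the ETS word upstream of Ndufb6, Ndufb7 and Ndufs3. Printed here are upstream stretches of Ndufa11 (chr17:56717702-56717761, plus strand, ending at the start), Ndufb4 (chr16:37654459-37654608, minus strand, ending 90 bases before the start), Ndufb6 (chr4:40279512-40279661, minus strand, ending 90 bases before the start) and Ndufs5 (chr4:123718207-123718356, minus strand, ending 20 bases before the start). They show the NRF1 word in 3 genes and the ETS word in 1, and capitals mark the word.
Ndufa11: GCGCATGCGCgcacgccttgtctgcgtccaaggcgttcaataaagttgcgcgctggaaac
Ndufb4: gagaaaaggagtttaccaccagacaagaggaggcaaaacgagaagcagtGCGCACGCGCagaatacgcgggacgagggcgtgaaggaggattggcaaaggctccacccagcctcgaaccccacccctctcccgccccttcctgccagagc
Ndufb6: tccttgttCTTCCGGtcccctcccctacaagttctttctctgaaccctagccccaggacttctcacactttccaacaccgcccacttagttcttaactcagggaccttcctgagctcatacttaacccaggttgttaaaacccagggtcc
Ndufs5: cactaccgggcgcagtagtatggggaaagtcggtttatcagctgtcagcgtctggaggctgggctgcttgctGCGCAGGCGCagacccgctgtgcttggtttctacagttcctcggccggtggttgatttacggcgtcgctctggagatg

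Levels of different genes were compared per length, as CPM (counts scaled to a common library total after TMM scaling) divided by the length of the principal transcript in kilobases. In RW thyroid at 15 hours Ndufa4 stood highest at 256 ± 85.2 CPM per kb (SD, n = 5), next to Ndufb8 at 246 ± 22.0 and Ndufb9 at 189 ± 81.7. These neighbours did not differ beyond their spread. Ndufv1, the subunit that carries the flavin and oxidises NADH, reached 112 ± 50.4 CPM per kb, and Ndufs1, which holds iron-sulfur clusters, 57.2 ± 32.3. At the low end were Ndufb2 at 7.59 ± 1.76, Ndufab1 at 3.90 ± 1.29, Ndufs5 at 3.55 ± 1.27 and Ndufb4 at 3.18 ± 0.969 CPM per kb, of which the last 3 overlapped in their spread. The highest and lowest members differed by a factor of 80.6. Ndufb2, Ndufab1, Ndufs5 and Ndufb4 share sequence or exons with other genes, as listed above, so their levels per kb are uncertain. The longest principal transcript was used, of 4371 bases for Ndufb2 and 3479 for Ndufab1, against a member median of 908. The low levels per kb of Ndufb2 and Ndufab1 therefore depend on that choice.

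Depth was 15271242 to 52835846 counts per library. The thyroid follicle markers were present in every library except Slc26a4, which was at 0 in 4 libraries of the second 7-day set. Thyroglobulin (Tg), the main product of the follicle, took 0.450% to 42.4% of counts over the 50 libraries, and 1.15% to 6.50% in the second set. The 12 markers of skeletal muscle summed to between 349 and 259113 CPM per library, with Myh7 the only one at 0 in any library. The 7 markers of brown fat (Ucp1, Cidea, Elovl3, Otop1, Dio2 and the complex IV genes Cox7a1 and Cox8b) were above 0 in every library. In bulk tissue, fewer cells of a type and less RNA per cell cannot be told apart.

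A complex I level was formed for each library as the median over the 37 members of log2(CPM divided by its mean over the 50 libraries). In RW thyroid at 15 hours the 5 libraries stood at -0.67, -0.09, -0.69, -0.91 and 0.07, and at 5 days at -1.29, -1.29, 1.34, -0.84 and -1.20. One 5-day control library thus stood more than 2 log2 units above the other 4. In RW of the first 7-day set the values were -0.70, -0.88, -0.68, -0.93 and -0.17.

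With aJ1aJ2 the levels were -0.63, -0.92, -0.15, -0.41 and -0.75 at 15 hours and -0.64, -1.44, -0.00, -1.17 and -1.51 at 5 days. They were -0.62, 0.49, -0.77, -0.67 and -0.38 in the first 7-day set. All of these groups overlapped RW of the same time. With aN1aN2 the levels were -1.17, -0.44, -0.21, -0.77 and 0.23 at 15 hours and -0.10, -0.97, -1.35, -0.63 and -1.26 at 5 days, again overlapping RW. The second 7-day set was different: aJ1aJ2 stood at 1.11, 1.36, 1.47, 1.82 and 1.17, and aN1aN2aN3 at 1.16, 0.26, 0.39, 0.19 and -0.01. Only replicate 1 of aN1aN2aN3 reached the range of aJ1aJ2 in that set.

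**Figure D1:**
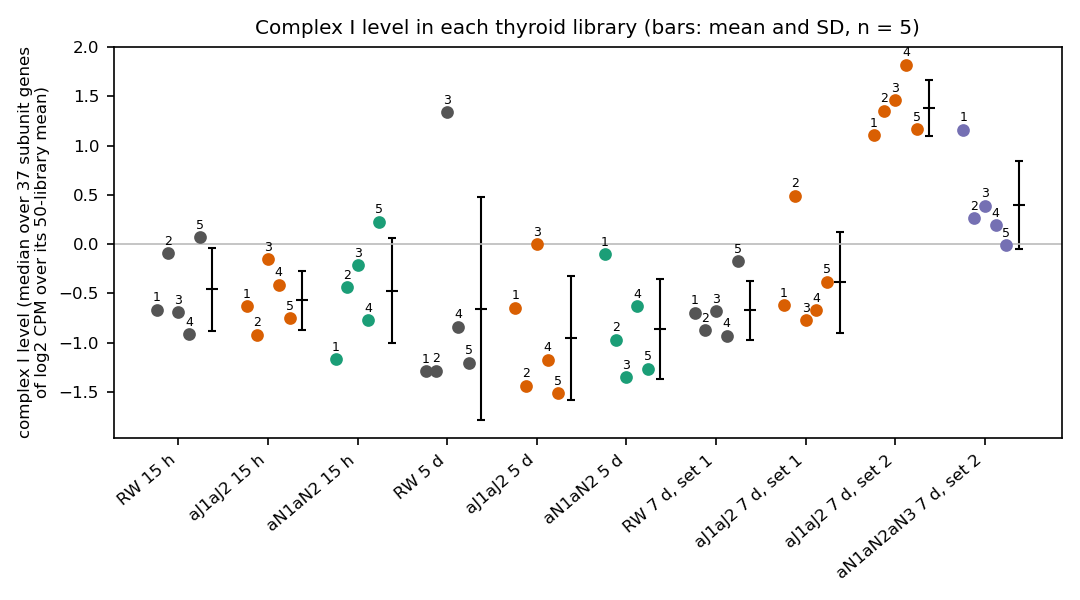
Complex I level (median over 37 members, log2 relative to the mean of 50 libraries) for each library, by group; points are libraries with their replicate number and bars are the group mean and SD (n = 5). Group means lie between -0.95 and -0.39 in the first 8 groups, at 1.38 for aJ1aJ2 and at 0.40 for aN1aN2aN3 in the second 7-day set, and replicate 3 of RW at 5 days stands apart at 1.34.

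Members mostly moved together from library to library. In 8 of 10 groups a single library was the highest for over 30 of the 37 members, and in 5 groups for all 37. The exceptions were both aJ1aJ2. At 15 hours replicate 3 was the highest for 25 members and replicate 4 for 12. In the second 7-day set replicate 4 was the highest for 25, while replicate 5 was the highest for 9 and the lowest for 14. The library with the highest complex I level was also the highest of its group in summed skeletal muscle markers in 8 of 10 groups, in summed brown fat markers in 7 and in summed mitochondrial complex I transcripts in 7. It had the lowest share of thyroglobulin in 9 of 10 groups. Replicate 3 of RW at 5 days held 259113 CPM of muscle markers and 0.450% thyroglobulin, where the other 4 libraries of its group held 1718 to 14941 CPM and 34.0% to 40.3%. Replicate 2 of aJ1aJ2 in the first 7-day set held 118667 CPM of muscle markers, 2832 CPM of brown fat markers and 8.87% thyroglobulin. The part of muscle and brown fat in the complex I level was not tested.

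**Figure D2:**
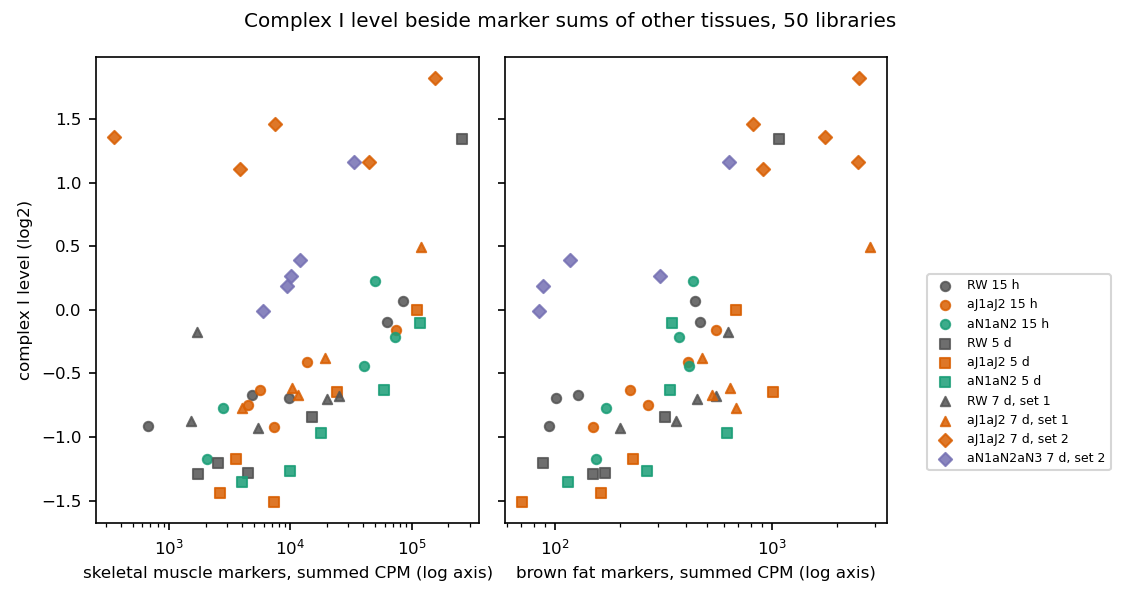
Complex I level of each library against the summed CPM of skeletal muscle markers (left) and of brown fat markers (right), both on a log10 axis, with groups marked by colour and symbol. The library with the highest muscle sum, replicate 3 of RW at 5 days, has the highest level of the first 8 groups, and the second-set aJ1aJ2 libraries lie high at muscle sums from 349 to 154708 CPM.

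The first question was whether blocking the ligands or the receptors changed complex I transcripts within 15 hours. None of the 37 members passed the test in aJ1aJ2 against RW, where 0.573% of 18513 genes did (edgeR's quasi-likelihood test, Benjamini-Hochberg adjusted p below 0.05). The member median was -0.20 on the log2 scale against -0.03 for all genes, with 1 of 37 positive. In aN1aN2 against RW also 0 members passed, where 1.68% of genes did, and the member median was -0.00 with 18 positive. Both comparisons use the same RW libraries. No member had an unadjusted p below 0.05 in either, where 1220 genes (aJ1aJ2) and 2674 genes (aN1aN2) of the 18513 did. With 1 library left out the medians ran from -0.29 to -0.01, the latter without replicate 5 of RW, and from -0.24 (without replicate 5 of aN1aN2) to 0.15 (without replicate 1 of aN1aN2). Of 4 liver markers 3 were lower with aJ1aJ2 and 4 with aN1aN2 than with RW, and no muscle, brown fat, adipocyte or follicle marker passed.

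Among the members with the smallest p at 15 hours was Ndufb6, an accessory subunit of the distal membrane arm. It measured 23.1, 34.4, 18.0, 18.8 and 39.3 CPM in RW, 22.2, 14.1, 21.9, 26.6 and 19.7 in aJ1aJ2, and 9.46, 18.1, 26.2, 15.5 and 22.7 in aN1aN2. The 3 groups overlapped. Its difference from RW was -0.39 with aJ1aJ2 (SE 0.29, adjusted p = 0.984) and -0.56 with aN1aN2 (SE 0.29, adjusted p = 0.409). Ndufa7, an accessory subunit of the matrix arm, measured 39.5, 41.8, 37.0, 32.1 and 46.1 CPM in RW and 21.6, 26.4, 34.3, 31.7 and 42.6 in aN1aN2, a difference of -0.35 (SE 0.17, adjusted p = 0.369). The other members with the smallest p were Ndufa13 at -0.25 and Ndufs7 at -0.48 for aJ1aJ2, and Ndufc2 at -0.33 for aN1aN2. Between the receptor and the ligand block 0 members passed, where 0.13% of genes did, with Ndufa9 at 0.53, Ndufs8 at 0.34 and Ndufa13 at 0.29 (adjusted p 0.533 to 0.54). The member median was 0.21, and -0.05 without replicate 5 of aN1aN2. The median SE of a member was 0.29 in these comparisons. Ndufb6 did not pass at -0.56 with an SE of 0.29, so changes of that size and below could go undetected.

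At 5 days the members were lower than RW in every case by sign, but the median difference rested on a single control library. None of the 37 passed in aJ1aJ2 against RW, where 0.179% of 18434 genes did. An unadjusted p below 0.05 was found there for 1 member and for 2167 of all genes. In aN1aN2 against RW 0 members and 0.0% of genes passed, while 1848 genes had an unadjusted p below 0.05. Member medians were -0.59 and -0.56 against -0.06 and -0.07 for all genes, with the RW libraries shared by both comparisons. Without replicate 3 of RW the medians turned to 0.39 and 0.44.

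Ndufa1, a small subunit of the proximal membrane arm, had the smallest p at 5 days. It measured 50.5, 50.6, 144, 59.6 and 49.0 CPM in RW, 46.5, 35.8, 58.0, 40.3 and 32.4 in aJ1aJ2, and 60.4, 46.8, 46.6, 40.3 and 40.7 in aN1aN2. Apart from the library at 144, the RW values of 49.0 to 59.6 lay within the joint range of the treated groups. All but the highest library of each treated group lay below every RW library. The difference was -0.74 with aJ1aJ2 (SE 0.31, adjusted p = 0.367) and -0.60 with aN1aN2 (SE 0.31, adjusted p = 0.561). Ndufs5, another proximal subunit, measured 1.29, 0.756, 8.83, 1.58 and 0.99 CPM in RW and stood at -1.05 in both comparisons, with adjusted p of 0.541 and 0.674. Ndufab1 stood at -0.69 with aJ1aJ2 and Ndufb2 at -0.69 with aN1aN2. The receptor block against the ligand block gave 0 members and 0.0% of genes (778 genes at an unadjusted p below 0.05), with a member median of 0.05. That median was -0.22 without replicate 1 of aN1aN2 and 0.44 without replicate 3 of aJ1aJ2. Ndufa7 at -0.17, Ndufa1 at 0.14 and Ndufb11 at -0.15 had the smallest p there.

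Whether either antibody effect differed between the 2 time points was tested with an interaction term, taken as 5 days minus 15 hours. For aJ1aJ2 0 members passed, where 0.636% of 19337 genes did, with a median of -0.41 and Ndufa1 at -0.65, Ndufs5 at -1.13 and Ndufab1 at -0.57. For aN1aN2, whose 15-hour libraries have their own ID series, 0 members passed, where 1.8% of genes did, with a median of -0.57 and Ndufa1 at -0.64, Ndufab1 at -0.80 and Ndufs8 at -0.75. Both medians turned positive, to 0.56 and 0.44, without replicate 3 of RW at 5 days.

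In the first 7-day set 36 of 37 members were positive in aJ1aJ2 against RW, with a median of 0.36 against 0.01 for all genes. None passed, and 0.0% of 16954 genes did, while 1968 genes and 0 members had an unadjusted p below 0.05. Ndufab1 measured 12.2, 11.0, 11.3, 9.29 and 11.7 CPM in RW and 12.9, 27.9, 11.9, 12.7 and 12.9 in aJ1aJ2, a difference of 0.52 (SE 0.25, adjusted p = 0.446). Ndufv1 measured 161, 118, 163, 117 and 178 in RW and 178, 476, 150, 157 and 191 in aJ1aJ2, a difference of 0.68 (SE 0.33, adjusted p = 0.457). In both genes replicate 2 of aJ1aJ2 stood far above the rest and the other 4 libraries lay within or close to the range of RW. Ndufb11, of the distal membrane arm, stood at 0.39 (adjusted p = 0.468). Without replicate 2 the member median was 0.05.

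**Figure D3:**
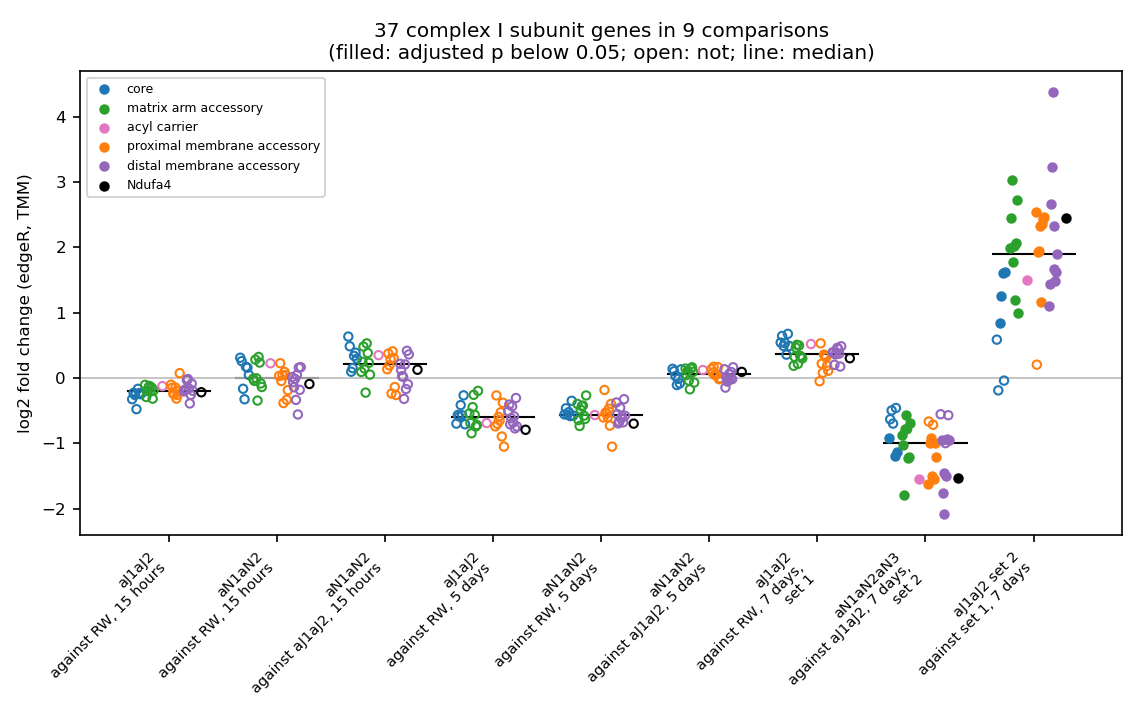
Log2 fold change of each of the 37 members (points) in 9 comparisons, with the member median as a line, the role as colour and filled points for adjusted p below 0.05. The 7 comparisons at 15 hours, at 5 days and within the first 7-day set hold no filled point, the second-set comparison holds 27 below 0, and the comparison of the aJ1aJ2 sets holds 33 above 0.

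The second 7-day set asked how blocking Notch1, Notch2 and Notch3 together compared with blocking the ligands. All 37 members were lower with aN1aN2aN3 than with aJ1aJ2 by sign, and 27 of 37 passed as lower, where 10.4% of 18450 genes did. The member median was -0.99 against -0.07 for all genes. For 18 members the 5 aN1aN2aN3 libraries all lay below the 5 aJ1aJ2 libraries, against 7.14% of genes. The brown fat markers moved the same way: they summed to 913, 1758, 819, 2530 and 2485 CPM with aJ1aJ2 and to 637, 305, 118, 88.0 and 84.6 with aN1aN2aN3, without overlap. The make-up of the sum differed between libraries. Ucp1, Cidea and Elovl3 held 930, 286 and 37.5 CPM of it in replicate 2 of aJ1aJ2, but 241, 80.2 and 8.70 in replicate 5. How much of the sum came from brown fat was not tested. With the brown fat sum as a covariate 0 members and 0 of 18450 genes passed (1934 genes and 0 members at an unadjusted p below 0.05), and the median was -0.23. Since the sums of the groups do not overlap, the group and the brown fat level cannot be told apart there.

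In the core of the matrix arm 3 of 7 members passed as lower, with a median of -0.70. Ndufs8, which carries iron-sulfur clusters on the way to ubiquinone, measured 205, 252, 250, 319 and 151 CPM with aJ1aJ2 and 176, 97.6, 100, 85.4 and 73.8 with aN1aN2aN3. It fell by 1.20 (SE 0.27, adjusted p = 0.0114), although replicate 1 of aN1aN2aN3 lay above the lowest aJ1aJ2 library. Ndufv2, an iron-sulfur partner of Ndufv1, fell by 1.13 (SE 0.24, adjusted p = 0.00841), and Ndufs1 fell by 0.91 (SE 0.27, adjusted p = 0.0322).

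Among the core members that did not pass, Ndufv1 measured 145, 183, 145, 400 and 230 CPM with aJ1aJ2 and 239, 177, 157, 143 and 123 with aN1aN2aN3, ranges that overlap almost throughout, and stood at -0.46 (SE 0.31, adjusted p = 0.305). Replicate 4 of aJ1aJ2 was far above the other 4 libraries. Ndufs7, which holds the last cluster before ubiquinone, stood at -0.70 (adjusted p = 0.134) and Ndufs3 at -0.50 (adjusted p = 0.116).

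Among the matrix arm accessory subunits 8 of 9 passed as lower, with a median of -0.87. Ndufs4, whose loss in humans and mice gives Leigh or Leigh-like disease, measured 254, 261, 300, 379 and 348 CPM with aJ1aJ2 and 229, 114, 121, 121 and 102 with aN1aN2aN3. The groups did not overlap, and it fell by 1.22 (SE 0.25, adjusted p = 0.00698). Ndufs6, a zinc-binding subunit near the base of the NADH module, fell by 1.21 (SE 0.27, adjusted p = 0.0101), with 143 to 277 CPM against 61.6 to 144. Ndufa5 measured 198, 189, 265, 375 and 941 against 190, 97.5, 120, 92.3 and 90.7, so replicate 5 of aJ1aJ2 carried much of its difference. It fell by 1.80 (SE 0.46, adjusted p = 0.0197), and by 1.17 without that library. Its call was lost without replicate 2, 3 or 5 of aN1aN2aN3, where it stood at -1.74, -1.80 and -1.71. Ndufa9, at the junction of the arms, was the one that did not pass, at -0.78 (adjusted p = 0.0704).

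Ndufab1 measured 35.9, 43.2, 38.2, 63.1 and 38.2 CPM with aJ1aJ2 and 25.2, 17.3, 11.3, 12.6 and 11.7 with aN1aN2aN3. Every aN1aN2aN3 library lay below every aJ1aJ2 library, and the gene fell by 1.54 (SE 0.26, adjusted p = 0.00332). Ndufa4 measured 474, 578, 648, 826 and 1301 against 451, 228, 262, 231 and 203, with the groups nearly touching at 474 and 451. It fell by 1.53 (SE 0.32, adjusted p = 0.00826).

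In the proximal membrane arm 7 of 9 members passed as lower, and all 9 stood between -1.62 and -0.67. Ndufa1 measured 230, 263, 325, 249 and 584 CPM with aJ1aJ2 and 202, 80.1, 91.1, 110 and 73.8 with aN1aN2aN3, without overlap, and fell by 1.62 (SE 0.34, adjusted p = 0.00858). Ndufc1 measured 82.0, 86.0, 121, 150 and 174 against 75.6, 38.8, 39.5, 34.4 and 30.9 and fell by 1.54 (SE 0.30, adjusted p = 0.00558). Ndufa13, also known as Grim-19, fell by 0.91 (SE 0.21, adjusted p = 0.0132) and Ndufc2 by 0.99 (SE 0.20, adjusted p = 0.00629). Ndufs5, shown above with its NRF1 word, fell by 1.21 (SE 0.28, adjusted p = 0.0122). Ndufa8 at -0.72 and Ndufa10 at -0.67 did not pass.

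In the distal membrane arm 7 of 10 passed as lower, with a median of -0.97. Ndufb2 measured 132, 148, 176, 216 and 312 CPM with aJ1aJ2 and 111, 53.9, 46.9, 48.5 and 40.3 with aN1aN2aN3, without overlap, and fell by 1.77 (SE 0.33, adjusted p = 0.00467). Ndufb6, the gene with the ETS word above, measured 135, 171, 173, 220 and 193 against 104, 56.9, 62.2, 52.3 and 51.1 and fell by 1.50 (SE 0.23, adjusted p = 0.00229). In all of these genes replicate 1 was the highest aN1aN2aN3 library, as it was for all 37 members.

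Ndufb4 had the largest difference of all members, with a call that depended on single libraries. It measured 21.7, 25.9, 27.0, 39.2 and 194 CPM with aJ1aJ2 and 22.6, 13.0, 16.6, 11.3 and 12.7 with aN1aN2aN3, and fell by 2.08 (SE 0.65, adjusted p = 0.0485). The difference was -0.95 without replicate 5 of aJ1aJ2, and still passed. Leaving out any aN1aN2aN3 library, or replicate 3 or 4 of aJ1aJ2, ended its call at values from -2.27 to -1.97. Ndufb8 at -0.57 (adjusted p = 0.0854), Ndufb10 at -0.55 (adjusted p = 0.0835) and Ndufb5 (adjusted p = 0.0555) did not pass.

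**Figure D4:**
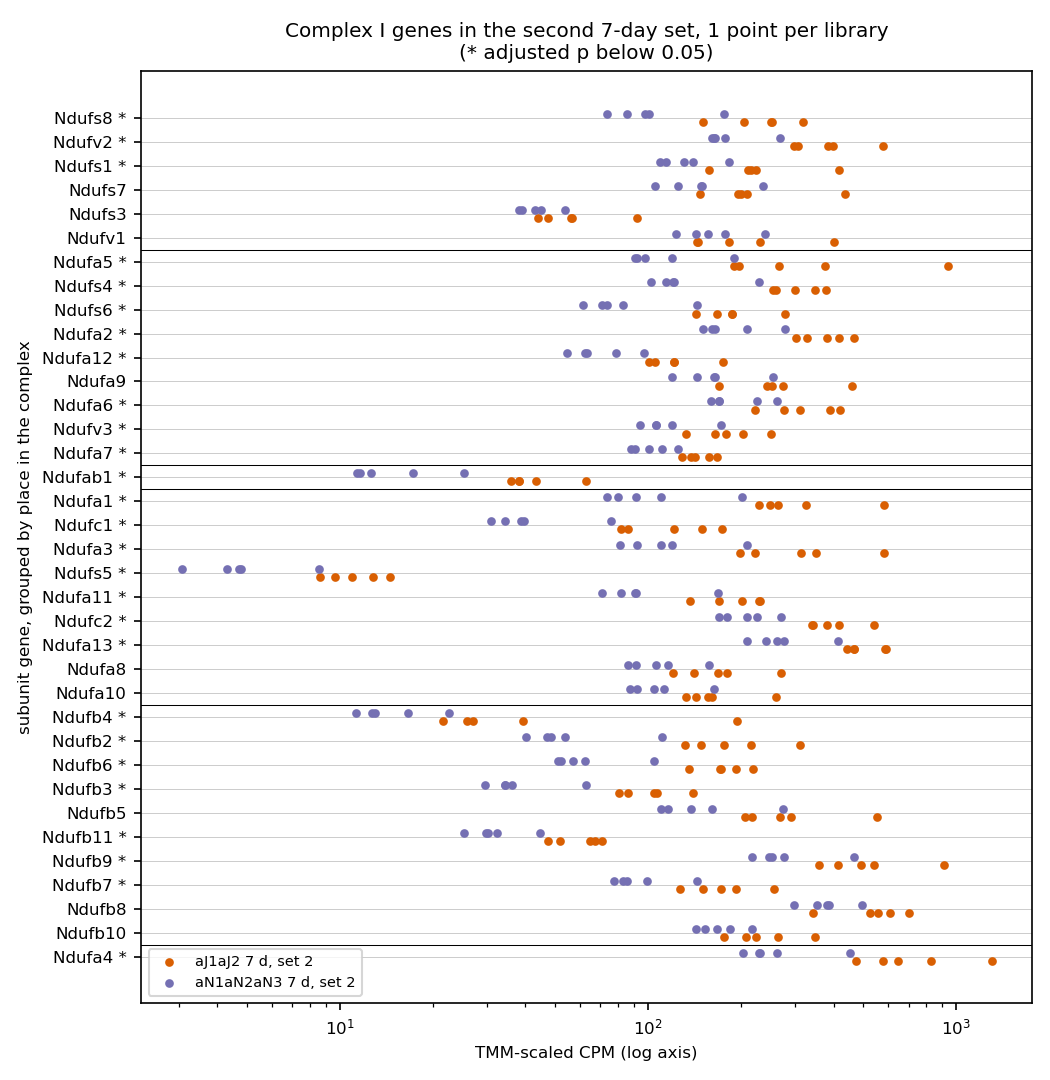
CPM on a log10 axis of the members in the 10 libraries of the second 7-day set, grouped by role, with aJ1aJ2 and aN1aN2aN3 in separate colours; points are libraries and an asterisk marks adjusted p below 0.05. Ndufab1, Ndufa1 and Ndufs4 show groups that do not overlap, Ndufb4 shows 1 aJ1aJ2 library at 194 CPM, and Ndufv1 shows overlapping groups.

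The transcripts around complex I were lower in the same comparison to differing degrees. Of the 7 subunits encoded by mitochondrial DNA 5 were abundant enough to test, and all 5 passed as lower: mt-Nd2 fell by 2.08, mt-Nd4 by 1.75, mt-Nd1 by 1.66, mt-Nd6 by 1.33 and mt-Nd5 by 1.22. Their group summed to 6203, 6875, 12050, 14365 and 14959 CPM with aJ1aJ2 and to 6410, 2451, 3346, 3004 and 3189 with aN1aN2aN3. Assembly factors, which build the complex and do not stay in it, passed as lower for 8 of 18 and as higher for 0, with a median of -0.72. Ndufaf5, a modifying enzyme, fell by 1.78, Ndufaf4 by 1.16, Ndufaf2 by 1.02 and Timmdc1 by 0.91. Of the 4 subunits of complex II, succinate dehydrogenase, Sdhb fell by 1.02, Sdhd by 0.85 and Sdhc by 0.83, and Sdha stood at -0.23. Of 11 regulators of mitochondrial biogenesis 1 passed: Esrra fell by 1.10, while Ppargc1a stood at 0.04 and Nrf1 at 0.52. The regulators ranged from -3.04 to 0.52, with a median of -0.16.

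Other cell types were measured beside these differences in the second set. Of the brown fat markers 6 of 7 passed as lower, the exception being Ucp1, the uncoupling protein, at -3.20 (adjusted p = 0.108). Ucp1 measured 404, 930, 236, 977 and 241 CPM with aJ1aJ2 and 107, 192, 1.05, 7.76 and 5.68 with aN1aN2aN3. Of 6 general adipocyte markers 4 passed as lower, with a median of -2.28. The muscle markers had 0 of 11 passing with a median of -1.64, and their sums were 3869, 349, 7451, 154708 and 44795 CPM against 33541, 10017, 11900, 9274 and 5977. Thyroid follicle markers passed as higher for 2 and lower for 1 of 10, with a median of 0.00. Of 4 C-cell markers 2 were higher, of 5 endothelial markers 2 were higher and 2 lower, and of 3 lymphocyte markers 1 was lower. The part of brown fat, adipocytes and muscle in the complex I difference was not tested beyond the covariates given here and below.

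Against RW the neighbouring pathways gave few calls. No assembly factor, complex II subunit or regulator passed at 15 hours, at 5 days or in the first 7-day set. The exception among mitochondrial transcripts was mt-Nd4l at 15 hours, which was higher with aN1aN2 than with RW by 2.73 (adjusted p = 0.0366), at 3.99 against 0.60 CPM on average, with the ID series of the groups again not told apart from treatment.

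The ligand block was sampled at 7 days in both sets, which allowed the same antibody treatment to be compared between sets. In the second set 33 of 37 members were higher than in the first, where 34.1% of 19570 genes were, with a median of 1.91 against 0.09 for all genes. For 27 members the sets did not overlap, against 22.5% of genes. The labels give both groups the same antibodies and doses, and the sets have separate series of sample IDs. Whether the sets differed in thyroid hormone injections is not labelled. Set and every feature of handling that went with it cannot be told apart.

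Ndufb4 measured 2.94, 5.84, 1.83, 1.93 and 2.79 CPM in the first set against 21.7 to 194 in the second, higher by 4.37 (SE 0.59, adjusted p = 3.78e-06), and by 3.24 without replicate 5 of the second set. Ndufb3, of the distal membrane arm, measured 8.64, 18.0, 9.36, 9.29 and 10.8 against 80.5, 86.4, 105, 107 and 140, higher by 3.23 (SE 0.26, adjusted p = 1.42e-09). The lowest second-set value was more than 4 times the highest first-set value. Ndufa5 was higher by 3.03, Ndufs6 by 2.72, Ndufb2 by 2.67 and Ndufa1 by 2.55. In contrast Ndufv1 stood at -0.04 (adjusted p = 0.919), Ndufa10 at 0.20 (adjusted p = 0.529) and Ndufs1 at 0.59 (adjusted p = 0.0733). By role, 4 of 7 core subunits passed as higher with a median of 0.84. All 9 matrix arm accessory subunits passed with a median of 2.03, 8 of 9 proximal members with 2.33 and all 10 distal members with 1.79.

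Transcript length went partly with the size of this difference (Spearman correlation -0.45 over the 37 members). The longest transcripts did not follow it closely: Ndufb2 (4371 bases) was higher by 2.67 and Ndufab1 (3479 bases) by 1.50, and both passed. The 19 members with transcripts up to the median length of 908 bases had a median of 2.33, and the 18 longer ones a median of 1.56. With an offset for the trend of all genes with transcript length, an alternative chosen after seeing the data, 26 members passed as higher and the median was 0.84. The share of all genes called with that offset is not given here, so the 26 cannot be set against it. Without composition scaling the all-gene median itself moved from 0.09 to 0.52, and the member median was then 2.32. Of the 7 mitochondrially encoded subunits 4 were lower and 0 higher in the second set, whereas 11 of 18 assembly factors were higher and 1 lower, and 2 of 4 complex II subunits were higher. Thyroid follicle markers were lower for 6 and higher for 2 of 10. Of the brown fat markers 2 were higher and 1 lower of 7, of the adipocyte markers 2 higher and 1 lower of 6, and of the muscle markers 1 higher of 12. Liver markers were lower for 4 of 4, endothelial markers lower for 4 and higher for 1 of 5, and lymphocyte markers higher for 3 of 6. The part of tissue makeup in the difference between sets was not tested.

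**Figure D5:**
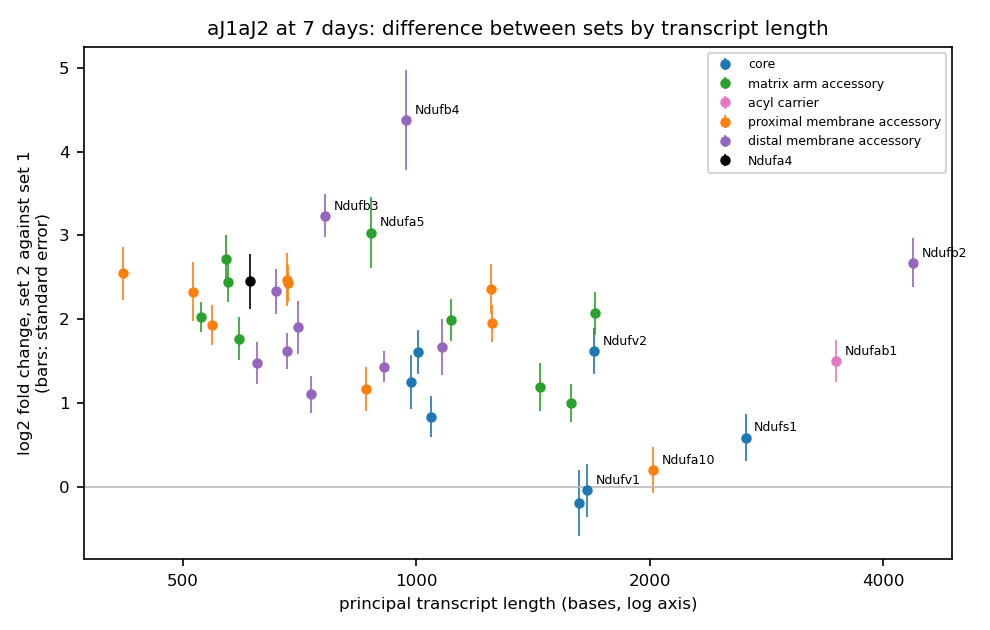
Log2 fold change of aJ1aJ2 in the second against the first 7-day set for each member, against the length of its principal transcript in bases on a log10 axis; bars are the SE and colours give the role. Members up to 908 bases have a median of 2.33 and longer ones a median of 1.56, and Ndufv1, Ndufa10 and Ndufs1, which did not pass, have transcripts of 1661 to 2661 bases. The longest, Ndufb2 (4371 bases) at 2.67 and Ndufab1 (3479 bases) at 1.50, passed.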

How the data were processed

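The authors deposited whole-number counts per gene and FPKM values for 50 libraries, made from single-end reads of 50 bases per the labels' protocols. GSNAP and limma are named in the submitters' processing notes. Of the genome build, annotation, counting program and strand setting nothing is given in the sources used. Symbols and transcript lengths came from GENCODE M21 tables, matched by Ensembl ID for 52403 genes. Groups were taken from the titles, and no label says more of separate mice than 1 number per library, so p-values measure the spread between these samples.

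Counts were tested in edgeR 4.0.16 under R 4.3.3 (TMM scaling, filterByExpr with minimum count 10 and minimum total 15, robust quasi-likelihood fits). Each fit covered all genes of 1 time or set, with Benjamini-Hochberg adjustment over the genes tested and a threshold of 0.05. Levels are CPM after TMM scaling over the 50 libraries. Fits were tested on simulated data. Alternatives were DESeq2 1.42.0, limma 3.58.1 (limma-voom with quality weights on counts, limma-trend on log2 of FPKM plus 0.1), other scalings, no count filter, tissue and replicate terms, and leaving out each library. The deposited FPKM scaled with the genomic span of the gene (89.2% of 10084 genes within 0.05 on the natural log scale, against 4.26% for transcript length), so the planned order of members by FPKM was replaced by CPM per kb.

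The members and lists were chosen with earlier results of these data known. Genes named were, per comparison, the 6 largest changes past the threshold or, with none past it, the 3 smallest p-values, plus a fixed list of subunits described throughout, of which 1 is not reported here. A few others (Ndufs8, Ndufv2, Ndufs3, Ndufs5, Ndufb5, Ndufb6, Ndufa8 and Ndufa10 in the second set) were named after their values were seen, to complete a count or to follow a printed sequence.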

Additional observations from a re-analysis of the deposited data

Results flagged for a closer look

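Single libraries stood far from the other 4 of their group in 52 of 190 sets of 5 values examined (the complex I level and 18 members in each of 10 groups, Dixon's test at the 95% level). Chance alone flags about 1 in 20, and the members are not independent of each other. Values are CPM unless stated.

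More flags fell on replicate 3 of RW at 5 days than on any other library. It was high in the complex I level (1.34 on the log2 scale) and in 18 members: Ndufa1 144, Ndufa13 393, Ndufa4 566, Ndufa5 247, Ndufa9 521, Ndufab1 51.7, Ndufb10 344, Ndufb2 99.5, Ndufb3 34.6, Ndufb4 9.13, Ndufb8 368, Ndufc1 90.4, Ndufc2 136, Ndufs1 832, Ndufs4 343, Ndufs6 115, Ndufs7 209 and Ndufv1 682. This is the library with the highest muscle marker sum and the lowest thyroglobulin share.

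Replicate 2 of aJ1aJ2 in the first 7-day set was high in 10 members: Ndufa4 263, Ndufa9 237, Ndufab1 27.9, Ndufb10 187, Ndufb2 49.5, Ndufb3 18.0, Ndufb4 5.84, Ndufs1 329, Ndufs7 203 and Ndufv1 476. Its muscle and brown fat sums were the highest of its group.

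In RW of the first 7-day set replicate 5 was high in Ndufa1 (93.5), Ndufa13 (197), Ndufa4 (175), Ndufb8 (234) and Ndufc2 (113). Its muscle sum of 1678 CPM was not high in its group, and its brown fat sum of 628 CPM was the highest there.

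In aJ1aJ2 of the second set replicate 5 was high in Ndufa1 (584), Ndufa5 (941) and Ndufb4 (194), and replicate 4 in Ndufab1 (63.1), Ndufs1 (417) and Ndufs7 (437). Replicate 4 had the highest muscle sum of the set. Replicate 1 of aN1aN2aN3 was high in Ndufa1 (202), Ndufa4 (451), Ndufb2 (111), Ndufb3 (62.7), Ndufc1 (75.6), Ndufs4 (229) and Ndufs6 (144), and had the highest muscle and brown fat sums of its group.

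The remaining flags were replicate 3 of aJ1aJ2 at 15 hours in Ndufab1 (18.8), Ndufb4 (4.97) and Ndufs1 (231), replicate 4 of RW at 15 hours low in Ndufb8 (141), and replicate 5 of aN1aN2 at 15 hours high in Ndufa1 (82.5).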

How the results depend on the processing

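No called result changed direction. In the second 7-day set the 27 members called lower became 0 with the brown fat sum as a covariate (median -0.23), 18 with a replicate block, and between 18 and 32 when 1 library was left out (18 without replicate 2 or 5 of aN1aN2aN3, 32 without replicate 5 of aJ1aJ2). RLE size factors gave 27, library totals without composition scaling 24, no count filter 24, DESeq2 31, limma-voom with quality weights 33, limma-trend on FPKM 26, the muscle covariate 33 and the length offset 23. Over all genes this comparison had 1696 higher and 1918 lower calls, and 1815 and 1198 with library totals, which moved the all-gene median from -0.07 to 0.04. All-gene calls numbered 3614, 8214 with limma-voom with quality weights and 2100 with the replicate block. Those of the other alternatives, apart from library totals and the brown fat covariate, are not given here. The member counts of those other alternatives cannot be set against them. Ndufb4 kept its call under 7 of 19 alternatives (DESeq2 gave no adjusted p) and Ndufa5 under 15 of 20, and Ndufb2, Ndufa1, Ndufab1 and Ndufc1 lost theirs only with the brown fat covariate. For aJ1aJ2 between the sets 33 calls ranged from 33 to 35 with 1 library left out, and the block gave 33. Its median moved from 1.91 to 2.32 with library totals and 0.84 with the length offset, and the second-set aJ1aJ2 median of the complex I level from 1.36 to 1.68 with library totals.

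In the comparisons with 0 members called, leaving out 1 library gave 0 to 0 and the replicate block 0. The brown fat covariate called 2 in aN1aN2 against RW at 15 hours (Ndufb6 and Ndufa3). At 5 days aJ1aJ2 against RW had 1 call (Ndufa1) with limma-voom quality weights and 1 (Ndufa1) with the muscle covariate. The muscle covariate called 9 in aN1aN2 against RW, all lower, from -0.79 (Ndufb2) to -0.62 (Ndufa11). The share of all genes called with these covariates is not given here, so these counts cannot be set against it. The interaction for aJ1aJ2 had 1 (Ndufa1) with limma-voom quality weights and that for aN1aN2 1 (Ndufab1) with the muscle covariate. Without replicate 3 of RW at 5 days the uncalled medians turned to 0.39, 0.44 and, for the interactions, 0.56 and 0.44. Library totals moved the all-gene medians at 5 days from -0.06 and -0.07 to 0.16 and 0.11, and the member medians to -0.17 and -0.18. In the first 7-day set the median was -0.11 with the brown fat covariate. The causes were not tested. Same-numbered libraries did not correlate above 0.1 in every pair of any 2 groups. They did in 4 of 5 pairs for RW with aN1aN2 at 15 hours (mean r 0.43, other numbers -0.10) and for RW with aJ1aJ2 at 5 days (0.38 and -0.02), and in 0 of 5 in the second set, so the numbers were not treated as pairing the samples. Members at the lowest counts, such as Ndufb4 and Ndufs5, are the ones that depth limits most.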
